A study of Mus musculus with 24 samples.

Results

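Neutral amino acid transporters were followed in the brain and liver of mice that had lost a single phenylalanine tRNA gene. The 10 genes (Slc7a5, Slc3a2, Slc7a8, Slc16a10, Slc43a1, Slc43a2, Slc38a2, Slc38a1, Slc1a5 and Slc7a11) were chosen by name for what they carry, with earlier results of these data known. Each had 1 entry among the 55469 genes measured in each tissue. RNA sequencing had been carried out on 24 samples from 2 tissues, with 3 samples of each of 4 genotypes per tissue. The groups were male wild-type (WT) C57BL/6N mice and male mice homozygous for the CRISPR-Cas9 deletion of 1 gene of the tRNA-Phe-GAA family, tRNA-Phe-2-1-/-, tRNA-Phe-1-1-/- or tRNA-Phe-3-1-/- (spelled tRNA-Phe-GAA-1-1-/- and so on in the labels). All were on normal chow and age-matched. The age of the sequenced mice is not given in the sources used here, while other measurements of the study used mice of 10 weeks. A single guide RNA had been used for the whole tRNA family, the deletions are germline and so present in every cell, and each line was bred from edited founders. The labels do not say whether a brain and a liver sample with the same letter came from the same mouse. The deleted tRNA genes were not among the measured genes, so the genotypes were not checked here.

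Amino acids enter cells through families of carrier proteins with overlapping substrates. The heavy chain CD98, encoded by Slc3a2, pairs with light chains such as LAT1 (Slc7a5) and LAT2 (Slc7a8) that exchange large neutral amino acids, phenylalanine among them, while TAT1 (Slc16a10) lets aromatic amino acids leave or enter cells down their gradient and LAT3 and LAT4 (Slc43a1, Slc43a2) do so for branched-chain amino acids and phenylalanine. The sodium-coupled carriers SNAT2 (Slc38a2) and SNAT1 (Slc38a1) accumulate small neutral amino acids and glutamine inside cells. The exchangers can then trade these for other amino acids. ASCT2 (Slc1a5) is a sodium-dependent exchanger of glutamine and small neutral amino acids, and xCT (Slc7a11) imports cystine in exchange for glutamate. LAT1 is best known in the brain from the endothelium of the blood-brain barrier, and transcription of several of these genes is known to rise when cells lack amino acids.

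Brain samples held between 30365760 and 46225360 reads, and liver samples between 32276896 and 51584522. All 7 neuronal and all 6 hepatocyte markers were present in their tissue, with summed normalised counts of at least 93883 in every brain and at least 2122060 in every liver sample. Markers of the choroid plexus, which can be included or missed in dissection, summed to between 206 and 53010 across brain samples. Comparisons were limited to genes whose normalised counts averaged 10 or more in the tissue, which kept all 10 transporters in the brain and 9 in the liver. Slc7a11 fell below this limit in the liver.

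In WT mice the tissues used different transporters. Levels are given here as CPM, the count scaled to the same total in every sample, as a description without a test, because the brain and liver tables were normalised separately. Slc38a1, Slc7a11, Slc7a5 and Slc7a8 were mainly brain transcripts. Slc38a1 stood at 144 ± 5.96 CPM in the WT brain (SD, n = 3) and 1.82 ± 0.496 in the WT liver. Slc7a11 stood at 81.3 ± 12.5 in the brain and 0.0592 ± 0.0123 in the liver, so that it was close to undetected there. For Slc7a5 the levels were 20.1 ± 1.56 and 1.67 ± 0.226 CPM, a ratio of 12.1. Slc16a10 had the opposite distribution, with 4.29 ± 0.415 in the brain and 62.4 ± 7.03 in the liver. Slc43a1 was likewise higher in the liver, with 3.24 ± 1.24 against 0.572 ± 0.715 CPM. Slc38a2 was abundant in both tissues, at 113 ± 17.4 in the brain and 88.0 ± 6.11 in the liver, and Slc1a5 was low in both, at 1.96 ± 0.259 and 1.94 ± 0.154.

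**Figure D1:**
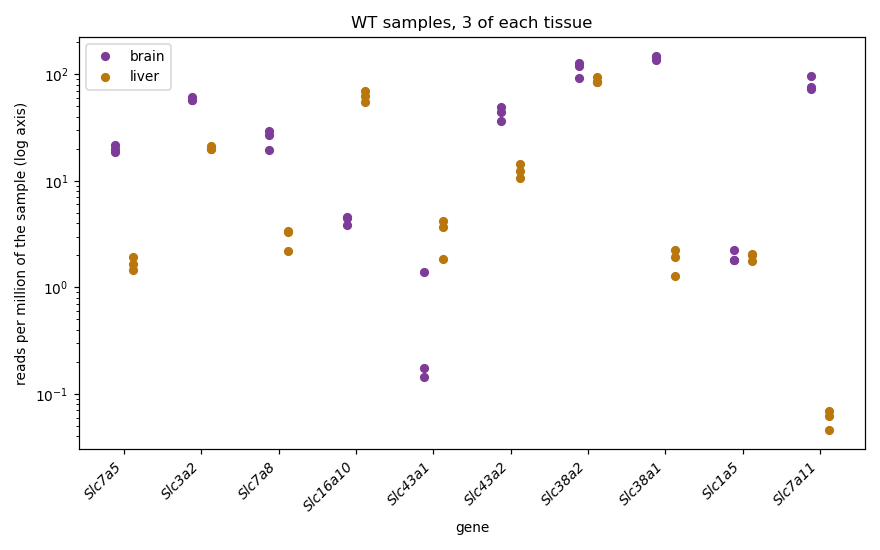
CPM of each transporter (log axis) in the 3 WT brain and 3 WT liver samples, 1 point per sample. Slc38a1, Slc7a11, Slc7a5 and Slc7a8 lie higher in the brain, Slc16a10 and Slc43a1 higher in the liver, and Slc38a2 and Slc1a5 at about the same height in both.

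Levels of different genes within a tissue were ordered per kilobase of the longest coding transcript. In the WT liver the order was led by Slc38a2 with 796 ± 62.1 normalised counts per kilobase (SD, n = 3), followed by Slc16a10 with 478 ± 55.4 and Slc3a2 with 278 ± 6.83, each apart from the next by more than the range of its samples. Slc43a2, Slc43a1, Slc1a5, Slc7a8 and Slc7a5 followed, and each of these overlapped with its neighbour. Slc38a1, with 10.1 ± 2.72, and Slc7a11, with 0.271 ± 0.0554, came last. In the WT brain Slc38a2 led with 850.5 ± 111, and Slc3a2 with 672 ± 9.36 and Slc38a1 with 667 ± 19.7 could not be separated. With the median coding transcript length in place of the longest, Slc38a1 led in the brain and Slc7a11 came next, so the order of genes with long alternative transcripts depends on that choice, while Slc38a2, Slc16a10 and Slc3a2 kept the first 3 places in the liver.

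The clearest difference between genotypes was in the liver of tRNA-Phe-1-1-/- mice. Of the 9 transporters tested there, 5 were higher than in WT mice (Slc16a10, Slc38a2, Slc1a5, Slc38a1 and Slc43a2) and none was lower (limma, adjusted p under 0.05), where 8.27% of all genes tested were higher and 9.08% were lower. All 9 differences were positive, with a median of 0.76 on the log2 scale against a median of -0.01 over all genes tested. For 6 of the 9 the lowest tRNA-Phe-1-1-/- sample lay above the highest WT sample, which held for 17.2% of all genes. Since the transporters were chosen with earlier results of these data known, their counts beside these shares are a description only. The summed normalised count of the 10 genes was 8866, 7915 and 8009 in the WT samples and 15864, 22349.6 and 13613 in the tRNA-Phe-1-1-/- samples. Replicate B of tRNA-Phe-1-1-/- was the highest of these, and without it 3 transporters passed the threshold, with Slc38a1 and Slc43a2 lost.

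**Figure D2:**
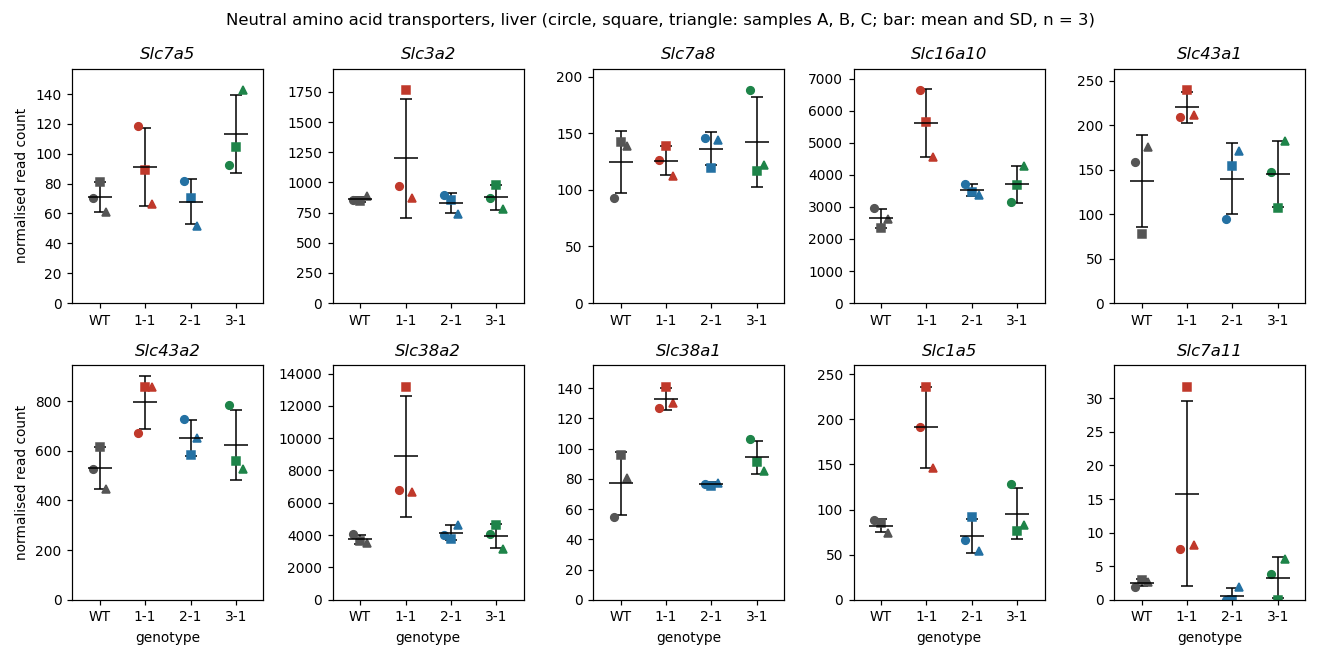
Normalised read counts of the 10 transporters in the liver by genotype (1-1, 2-1 and 3-1 stand for the deleted tRNA-Phe gene), with 1 symbol per sample and bars for the mean and SD (n = 3). The 3 samples of tRNA-Phe-1-1-/- lie above all WT samples for Slc16a10, Slc38a2, Slc1a5, Slc38a1, Slc43a1, Slc43a2 and the very low Slc7a11.

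Among the carriers of aromatic amino acids, Slc16a10 (ENSMUSG00000019838.11, chr10:40033532-40142270 in GRCm38.p6) encodes TAT1, which moves phenylalanine, tyrosine and tryptophan without coupling to ions. Its normalised counts in the liver were 2957, 2344 and 2633 in WT and 6655, 5657 and 4554 in tRNA-Phe-1-1-/- mice. All tRNA-Phe-1-1-/- samples lay far above the WT samples. The means differed by 2.13-fold, and the log2 difference was 1.08 ± 0.15 (SE, n = 3 per group; limma, adjusted p = 0.000799), the lowest adjusted p among the transporters. Slc16a10 was also the transporter whose other knockout samples stood apart from WT. The counts were 3731, 3464 and 3359.7 in tRNA-Phe-2-1-/- mice and in tRNA-Phe-3-1-/- mice they were 3139.9, 3693 and 4284. Every one of these 6 samples was above the highest WT sample and below the lowest tRNA-Phe-1-1-/- sample. The log2 differences from WT were 0.42 ± 0.15 (SE; limma, unadjusted p = 0.0154, adjusted p = 0.237) for tRNA-Phe-2-1-/- and 0.48 ± 0.15 (unadjusted p = 0.00688, adjusted p = 0.143) for tRNA-Phe-3-1-/-, so neither passed the threshold over all genes. These 3 comparisons share the WT samples.

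The 3 genes whose liver profile over the 12 samples was most like that of Slc16a10 were Tmed8, Tigar and Ang. Their correlations with Slc16a10 (Pearson r of log2 values, among 12461 genes) were 0.956, 0.956 and 0.946. All 12 samples share a tissue and 3 of them a strong genotype difference, so the coefficients are a description only.

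Slc38a2 (ENSMUSG00000022462.7, chr15:96687392-96699728) encodes SNAT2, the sodium-coupled carrier best known for rising when amino acids are scarce. Its normalised counts in the liver were 4062, 3623 and 3510.1 in WT and 6790.5, 13193 and 6658 in tRNA-Phe-1-1-/- mice. All tRNA-Phe-1-1-/- samples were above WT, and replicate B was nearly as high as the other 2 samples of its group together. The log2 difference was 1.18 ± 0.23 (SE; limma, adjusted p = 0.00552), and without replicate B it was 0.85 with an adjusted p of 0.00408. The tRNA-Phe-2-1-/- samples had 4002, 3767 and 4651 and the tRNA-Phe-3-1-/- samples 4059, 4598 and 3156. Both groups overlapped with WT, and the log2 differences were 0.15 ± 0.23 and 0.06 ± 0.23 (adjusted p = 0.799 and 0.922).

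The stretches upstream of Slc16a10 and Slc38a2 are shown because these transporters had the lowest adjusted p in the liver of tRNA-Phe-1-1-/- mice. They are the 250 bases before the start site in the RefSeq promoter table (GRCm38.p6), Slc16a10 at chr10:40142255-40142504 and Slc38a2 at chr15:96699729-96699978, both on the minus strand and written 5′ to 3′. Windows from 250 bases before to 50 after the start site were searched on both strands for 5 motifs, and no capital appears in these lines because none of the motifs was in them.
Slc16a10: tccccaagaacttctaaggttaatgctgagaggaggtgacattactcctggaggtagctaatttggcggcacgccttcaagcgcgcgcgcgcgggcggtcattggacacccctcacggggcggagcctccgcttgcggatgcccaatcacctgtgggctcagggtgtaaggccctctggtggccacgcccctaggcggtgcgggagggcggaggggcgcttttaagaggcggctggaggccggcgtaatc
Slc38a2: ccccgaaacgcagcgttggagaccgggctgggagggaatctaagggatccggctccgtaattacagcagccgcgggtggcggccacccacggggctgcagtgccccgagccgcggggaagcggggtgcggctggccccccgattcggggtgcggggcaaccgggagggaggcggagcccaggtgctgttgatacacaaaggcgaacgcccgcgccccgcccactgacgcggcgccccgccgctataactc
The motifs were the amino acid response element bound by ATF4 (TGATGNAAN, in 3.95% of the 32851 promoters of the table), a shorter core of it (TTGCATCA, 0.895%, which overlaps with the former where the letters allow), the cyclic AMP response element (TGACGTCA, 1.79%), the E-box (CACGTG, 7.15%) and the D-box of the clock output factor DBP (TTATGTAA, 0.938%). The table held 8 windows for 7 transporters, and Slc7a5, Slc38a1 and Slc1a5 had no entry. Among these windows an amino acid response element was present in that of Slc7a11, with 2 matches facing each other, and an E-box in that of Slc43a1. The matches are letters in a window and not measured binding sites. Sequence outside these windows was not searched, so the absence of a motif holds for the window alone.

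Slc1a5 (ENSMUSG00000001918.17, chr7:16781334-16798274), which encodes the glutamine and small neutral amino acid exchanger ASCT2, was a low transcript in the liver. Its normalised counts were 87.9, 85.0 and 73.9 in WT and 191, 236 and 146 in tRNA-Phe-1-1-/- mice. The lowest tRNA-Phe-1-1-/- sample was well above the highest WT sample, and the log2 difference was 1.18 ± 0.26 (SE; limma, adjusted p = 0.00966). Counts of 65.7, 91.3 and 54.4 in tRNA-Phe-2-1-/- and 128, 76.5 and 82.4 in tRNA-Phe-3-1-/- mice overlapped with WT.

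Slc38a1 (ENSMUSG00000023169.15, chr15:96571418-96643438), which encodes SNAT1, had liver counts of 54.7, 95.9 and 80.4 in WT and 127, 141 and 130.0 in tRNA-Phe-1-1-/- mice. The tRNA-Phe-1-1-/- samples lay close together and above all others of the tissue, with a log2 difference of 0.81 ± 0.20 (SE; limma, adjusted p = 0.0179). The adjusted p was 0.051 without replicate B of tRNA-Phe-1-1-/- and 0.069 when only the 2 groups compared were fitted. In the other lines the counts were 76.9, 75.0 and 77.4 (tRNA-Phe-2-1-/-) and 107, 91.1 and 85.5 (tRNA-Phe-3-1-/-), within or close to the WT range.

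The facilitated carriers LAT4 and LAT3 gave smaller differences. Slc43a2 (ENSMUSG00000038178.16, chr11:75529915-75577575) had liver counts of 528, 616 and 448 in WT and 672, 856 and 859 in tRNA-Phe-1-1-/- mice. The groups did not overlap, and the log2 difference was 0.59 ± 0.17 (SE; limma, adjusted p = 0.0375). This call was close to the threshold and was lost, with adjusted p between 0.0761 and 0.144, without replicate A or C of WT or replicate B or C of tRNA-Phe-1-1-/-, and with adjusted p between 0.0516 and 0.0583 with no filter, quantile normalisation, no variance trend or only the 2 groups compared. Slc43a1 (ENSMUSG00000027075.16, chr2:84838855-84863586) had counts of 158, 78.1 and 175 in WT, where replicate B was low, and 209, 239.8 and 212 in tRNA-Phe-1-1-/- mice. Again the groups did not overlap, but the log2 difference of 0.76 ± 0.32 did not pass the threshold (SE; limma, adjusted p = 0.122). The E-box of Slc43a1 begins 64 bases before its start site. It is shown in capitals within the stretch at chr2:84840249-84840274 (plus strand, GRCm38.p6), whose sequence is ggtctccctcCACGTGgcagccgtgg.

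CD98 and the light chains LAT1 and LAT2 did not pass the threshold in the liver of any line. Slc3a2 (ENSMUSG00000010095.13, chr19:8706882-8723369), the heavy chain, had counts of 854, 846 and 886 in WT and 967, 1767 and 867 in tRNA-Phe-1-1-/- mice. The WT samples were nearly identical, while replicate B of tRNA-Phe-1-1-/- was about as high as the other 2 samples of its group together and replicate C lay within the WT range (log2 difference 0.40 ± 0.21, SE; limma, adjusted p = 0.22). Slc7a5 (ENSMUSG00000040010.10, chr8:121881146-121907686), the light chain LAT1, was a low transcript with counts of 70.3, 81.0 and 61.0 in WT and 119, 89.0 and 66.5 in tRNA-Phe-1-1-/- mice (log2 difference 0.33 ± 0.26, adjusted p = 0.415). In tRNA-Phe-3-1-/- mice its counts were 92.2, 105 and 143, all above WT, with a log2 difference of 0.65 ± 0.26 that did not pass the threshold (unadjusted p = 0.0278, adjusted p = 0.248). Slc7a8 (ENSMUSG00000022180.7, chr14:54722215-54781886), the light chain LAT2, had counts of 92.8, 142 and 139 in WT and 126, 138 and 113 in tRNA-Phe-1-1-/- mice, with a log2 difference of 0.03 and a 95% interval of -0.45 to 0.52.

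Slc7a11 (ENSMUSG00000027737.10, chr3:50364936-50499087), the cystine carrier xCT, was near the limit of detection in the liver. Its normalised counts were 1.95, 2.97 and 2.59 in WT and 7.53, 31.7 and 8.19 in tRNA-Phe-1-1-/- mice. All tRNA-Phe-1-1-/- samples were above WT, and replicate B stood apart from the others. It was listed at 0, 0 and 1.84 in tRNA-Phe-2-1-/- and at 3.84, 0 and 6.03 in tRNA-Phe-3-1-/- mice. It was left out of the main test as too low, and in a fit of all genes with any count tRNA-Phe-1-1-/- mice differed from WT with an adjusted p of 0.148 and from tRNA-Phe-2-1-/- mice with one of 0.022 (limma). Its promoter is shown because it was the only one of the 7 transporters in the table with an amino acid response element. The stretch lies 76 to 30 bases before the start site at chr3:50443643-50443689 (minus strand, GRCm38.p6), and the capitals mark both matches, the first read on the strand shown and the second on the other strand.
Slc7a11: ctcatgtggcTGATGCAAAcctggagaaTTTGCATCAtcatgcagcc

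No transporter passed the threshold in the liver of the other 2 lines. Of the 9, 0 passed in tRNA-Phe-2-1-/- mice (limma; 0 with edgeR and with DESeq2), beside 0.132% of all genes. At an unadjusted p under 0.05 there was 1, beside 14.9% of all genes, and the log2 differences ran from -0.25 to 0.42. Of the 9, 0 passed in tRNA-Phe-3-1-/- mice (limma; 0 with edgeR and with DESeq2), beside 0.883% of all genes. At an unadjusted p under 0.05 there were 2, beside 16.1% of all genes, and the differences ran from 0.02 to 0.65. All 9 were positive in tRNA-Phe-3-1-/- mice, with a median of 0.18 against 0.01 over all genes tested, and 6 of 9 were positive in tRNA-Phe-2-1-/- mice, with a median of 0.07 against 0.00. Samples did not overlap with WT for Slc16a10 in tRNA-Phe-2-1-/- mice (13.1% of all genes were higher without overlap) and for Slc16a10 and Slc7a5 in tRNA-Phe-3-1-/- mice (9.85%).

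**Figure D3:**
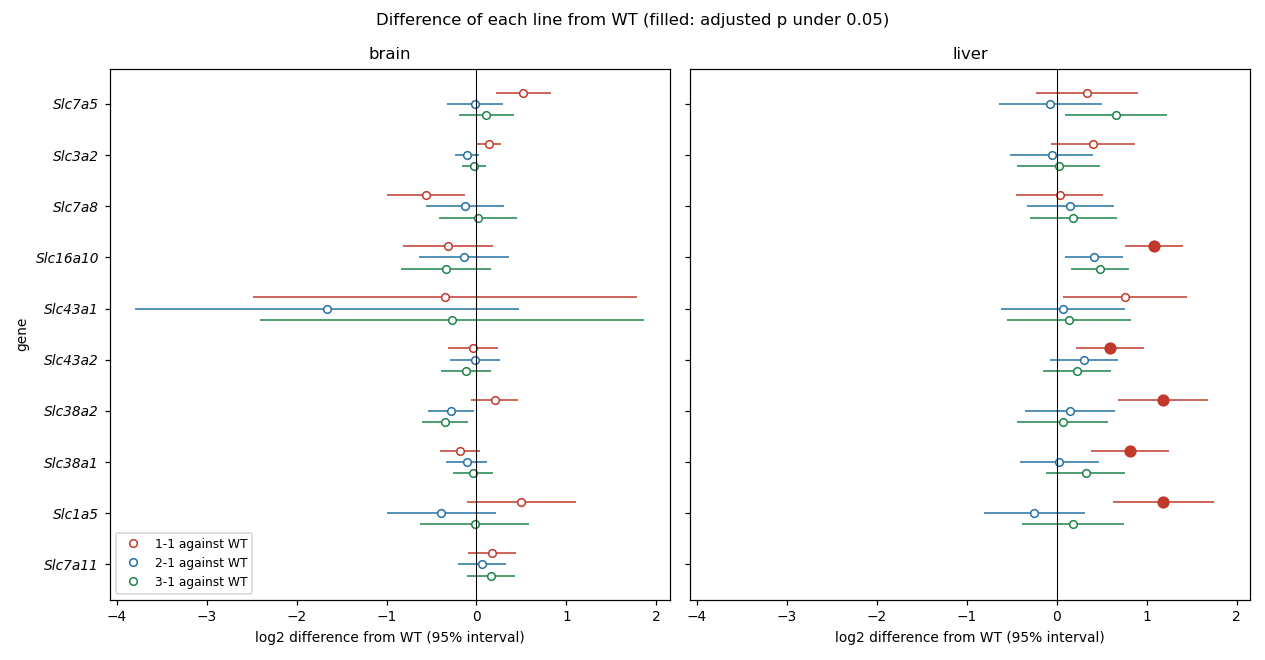
Log2 difference from WT of each transporter in each line with its 95% interval, in the brain (left) and the liver (right), with filled symbols for an adjusted p under 0.05. The filled symbols are the 5 transporters that were higher in the liver of tRNA-Phe-1-1-/- mice, and Slc7a11 has no value in the liver.

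The liver of tRNA-Phe-1-1-/- mice was also compared directly with that of the other knockouts. Of 13 clock genes, 6 were higher and 3 lower than in tRNA-Phe-2-1-/- livers, and 3 were higher than in tRNA-Phe-3-1-/- livers (limma). Of 6 red blood cell markers, 4 and 6 were lower in that order. Each line was bred from edited founders, so the deleted gene and other differences between the lines cannot be told apart. Against tRNA-Phe-2-1-/- mice, 4 of 9 transporters were higher in tRNA-Phe-1-1-/- mice and none was lower, where 7.37% of all genes were higher and 8.53% lower. The log2 differences were 1.43 ± 0.26 for Slc1a5, 1.03 ± 0.23 for Slc38a2, 0.79 ± 0.20 for Slc38a1 and 0.66 ± 0.15 for Slc16a10 (SE; limma, adjusted p from 0.00413 to 0.0223). Without replicate B of tRNA-Phe-2-1-/-, 2 transporters passed. Against tRNA-Phe-3-1-/- mice, 3 of 9 were higher and none was lower, where 7.45% of all genes were higher and 8.63% lower, with log2 differences of 1.11 ± 0.23 for Slc38a2, 1.00 ± 0.26 for Slc1a5 and 0.60 ± 0.15 for Slc16a10 (adjusted p from 0.0084 to 0.0227). Without replicate A of tRNA-Phe-1-1-/-, 1 passed, and when only the 2 groups compared were fitted, 0 passed. Between tRNA-Phe-3-1-/- and tRNA-Phe-2-1-/- livers 0 of 9 transporters passed (limma; 0 with edgeR and with DESeq2), beside 0% of all genes, and 1 had an unadjusted p under 0.05, beside 6.68%.

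Several other measurements moved with the tRNA-Phe-1-1-/- livers, where 8.27% of all genes tested were higher and 9.08% lower than in WT. Of 13 clock genes, 7 were higher and 4 lower than in WT, among them Dbp with counts of 67.4, 28.7 and 67.5 in WT and 2776, 853 and 3069 in tRNA-Phe-1-1-/- mice. Dbp counts were 36.9, 84.8 and 383 in tRNA-Phe-2-1-/- and 170.0, 2173 and 1343 in tRNA-Phe-3-1-/- mice. Of 6 red blood cell markers 5 were lower, with sums of 11571 to 13842 in tRNA-Phe-1-1-/- and 19774 to 26049 in WT mice. Of 6 hepatocyte markers 0 passed (limma, with 1 at an unadjusted p under 0.05), and their sums were 2122059.5 to 2618485 and 2715766 to 3341481. Of 6 sinusoidal endothelial markers 2 were higher and 1 was lower (sums 8977 to 11432 and 10959 to 12433), and 1 of 6 stellate cell markers was higher (sums 11943 to 13979 and 10985 to 12584). Of 6 Kupffer cell markers 0 passed, with 0 at an unadjusted p under 0.05 (sums 9431 to 13169.7 and 9742 to 10706), and the same held for the 5 bile duct markers tested (sums 779 to 956 and 849.6 to 981). The part of these in the transporter differences was not tested, and in whole tissue a change in the share of a cell type and a change of RNA per cell cannot be told apart.

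Other amino acid transporters gave a mixed picture in the same livers. Of 34 listed, 21 were tested, and 3 were higher and 1 lower in tRNA-Phe-1-1-/- than in WT mice, with a median log2 difference of 0.26 against -0.01 over all genes. Among all genes tested, 8.27% were higher and 9.08% lower. Slc6a15, Slc7a9 and Slc7a10 were listed at 0 in all liver samples. Slc1a2, the glutamate transporter GLT-1, had counts of 4038, 2721 and 2732 in WT and 10005, 7667 and 9533 in tRNA-Phe-1-1-/- mice, without overlap (log2 difference 1.54 ± 0.25, SE; limma, adjusted p = 0.00198). Slc43a3, a purine base carrier of the LAT3 and LAT4 family, was higher by 0.90 ± 0.16 (adjusted p = 0.00393). Slc38a9, the lysosomal arginine sensor, was higher by 0.43 ± 0.12 (adjusted p = 0.0273), and Slc38a7, the lysosomal glutamine carrier SNAT7, differed by -0.46 ± 0.12 (adjusted p = 0.0278).

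Genes of the response to amino acid shortage did not move as one group. Of 24 listed, 22 were tested, and 2 were higher (Sesn2 and Chac1) and 2 lower (Cth and Vldlr) in the liver of tRNA-Phe-1-1-/- mice, with a median log2 difference of 0.18. These counts were near the shares over all genes tested, 8.27% higher and 9.08% lower. Sesn2, an inhibitor of mTORC1 that is induced by ATF4, differed by 0.64 ± 0.15 and Chac1, which degrades glutathione, by 1.11 ± 0.35 (SE; limma, adjusted p = 0.0147 and 0.0474). Cth, which makes cysteine from cystathionine, differed by -0.98 ± 0.24 and Vldlr, a lipoprotein receptor, by -2.57 ± 0.67 (adjusted p = 0.0174 and 0.0235). Asns, the asparagine synthetase whose transcription is a standard readout of that response, had counts of 429, 1969.8 and 822 in WT and 529.8, 3599 and 529 in tRNA-Phe-1-1-/- mice. Replicate B was the highest sample in both groups, and the groups overlapped. In the livers of the other 2 lines 0 genes of either list passed (limma). Among all genes 0.132% passed in tRNA-Phe-2-1-/- and 0.883% in tRNA-Phe-3-1-/- mice. At an unadjusted p under 0.05, tRNA-Phe-2-1-/- mice had 7 of 21 other transporters and 2 of 22 response genes, beside 14.9% of all genes. In tRNA-Phe-3-1-/- mice there were 5 of 21 and 3 of 22, beside 16.1% of all genes.

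**Figure D4:**
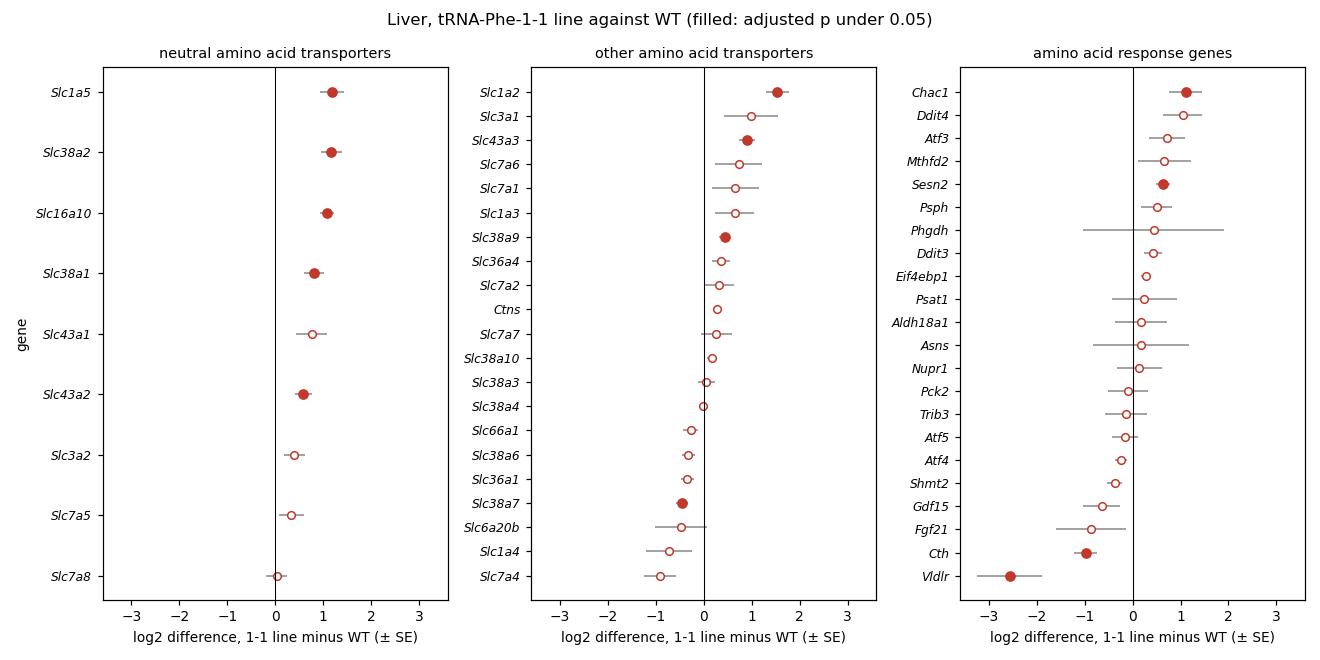
Log2 difference between tRNA-Phe-1-1-/- and WT livers, with its SE, for the neutral amino acid transporters (left), other amino acid transporters (middle) and amino acid response genes (right) that were tested, with filled symbols for an adjusted p under 0.05. All 9 neutral amino acid transporters lie to the right of 0, while the other lists lie on both sides.

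In the brain no transporter differed from WT beyond the threshold in any line. Of the 10, 0 passed in tRNA-Phe-1-1-/- mice (limma; 0 with edgeR and 1 with DESeq2), beside 1.05% of all genes, and 3 had an unadjusted p under 0.05, beside 15.9% of all genes. The transporter nearest to it was Slc7a5, with counts of 643, 794 and 709 in WT and 1076, 1135 and 879.8 in tRNA-Phe-1-1-/- mice. Every tRNA-Phe-1-1-/- sample was above every WT sample, and the log2 difference was 0.52 ± 0.14 with a 95% interval of 0.22 to 0.83 (SE; limma, unadjusted p = 0.00318, adjusted p = 0.106). With DESeq2 on recovered reads, in which replicate C of tRNA-Phe-1-1-/- had to be left out, the adjusted p was 0.0118, and with edgeR on the same reads it was 0.155. Counts were 656, 774 and 691 in tRNA-Phe-2-1-/- and 691, 932 and 703 in tRNA-Phe-3-1-/- mice, which overlapped with WT.

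Slc3a2, the partner of Slc7a5, was measured with little spread in the brain, with counts of 2087, 2105 and 2049 in WT and 2268, 2322 and 2259 in tRNA-Phe-1-1-/- mice. The groups did not overlap, but the difference was small, 0.13 ± 0.06 on the log2 scale (SE; limma, adjusted p = 0.313). Slc7a8, the light chain LAT2, went the opposite way, with counts of 676, 973 and 1047 in WT and 745, 575 and 505 in tRNA-Phe-1-1-/- mice, which overlapped (log2 difference -0.56 ± 0.20, adjusted p = 0.198). Non-overlapping groups were seen for 4 of the 10 transporters, with Slc7a5, Slc3a2 and Slc38a2 higher and Slc38a1 lower, while 25.2% of all genes did not overlap in this comparison.

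**Figure D5:**
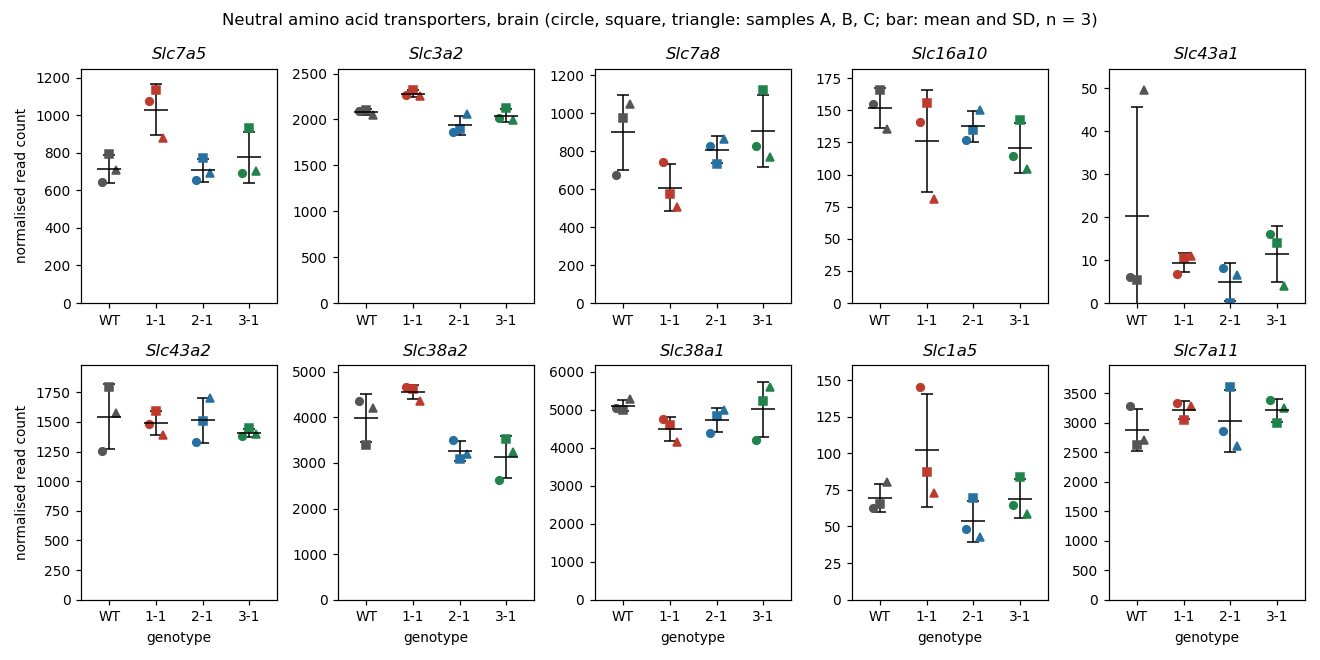
Normalised read counts of the 10 transporters in the brain by genotype, with 1 symbol per sample and bars for the mean and SD (n = 3). The Slc7a5 and Slc3a2 samples of tRNA-Phe-1-1-/- mice lie above all WT samples, and WT replicate C lies far above all other samples for Slc43a1.

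Because Slc7a5 is concentrated in brain endothelium, endothelial markers were read in the same samples. Of 7 markers 1 was higher (Ly6c1) and 1 lower (Cldn5) in tRNA-Phe-1-1-/- mice, and 2 had an unadjusted p under 0.05 (limma). Their sums were 6622 to 7137 against 6281 to 6916 in WT. Among all genes 1.05% passed the threshold in this comparison and 15.9% had an unadjusted p under 0.05. Oligodendrocyte markers had lower sums, 36737 to 67812 against 95561 to 112748, with 1 of 6 (Opalin) past the threshold. All 6 were lower with an unadjusted p under 0.05 (limma), with a median log2 difference of -1.0. Sums of choroid plexus markers were 244 to 634 against 649 to 13188 and those of red blood cell markers 7629 to 9636 against 15411 to 28325, with 0 of 6 past the threshold in each list (limma, with 2 and 5 at an unadjusted p under 0.05). For neurons (130526 to 153375 against 134620.2 to 163982), astrocytes (30924 to 31362 against 27837 to 33367) and microglia (6852 to 6998 against 6176 to 7106) 0 markers passed (limma, with 0, 0 and 2 at an unadjusted p under 0.05). The part of these in the values of Slc7a5 was not tested.

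Slc38a2, the first of the sodium-coupled carriers, had brain counts of 4352, 3392 and 4212 in WT, 4675, 4619 and 4369 in tRNA-Phe-1-1-/-, 3503, 3096 and 3189 in tRNA-Phe-2-1-/- and 2631, 3525 and 3241 in tRNA-Phe-3-1-/- mice. WT replicate B was lower than the other WT samples and within the range of both other lines, so that neither of these was separate from WT. Its log2 differences from WT were 0.20 ± 0.12, -0.28 ± 0.12 and -0.35 ± 0.12 in the order of the lines (SE; limma, adjusted p = 0.437, 0.894 and 0.281). Slc38a1, the most abundant transporter by reads, had counts of 5032, 4996 and 5273 in WT and 4746, 4581 and 4149 in tRNA-Phe-1-1-/- mice (log2 difference -0.19 ± 0.10, adjusted p = 0.409). Slc1a5 was low, with counts of 62.4, 65.5 and 80.1 in WT and 146, 87.3 and 73.2 in tRNA-Phe-1-1-/- mice, in which replicate A alone was far above WT (log2 difference 0.50 ± 0.28, adjusted p = 0.41).

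The remaining carriers did not pass the threshold in the brain. Slc16a10 had counts of 155, 166 and 135 in WT and 141, 156 and 81.2 in tRNA-Phe-1-1-/- mice, a log2 difference of -0.32 ± 0.23 (adjusted p = 0.533). Slc7a11 had counts of 3289, 2629.5 and 2709 in WT and 3335, 3048 and 3278 in tRNA-Phe-1-1-/- mice, and over all 12 brain samples it ran from 2603 to 3611. Slc43a2 ran from 1257 to 1799, and its log2 difference in tRNA-Phe-1-1-/- mice had a 95% interval of -0.32 to 0.24. Slc43a1 was near the limit of detection, with counts of 5.99, 5.28 and 49.7 in WT and 6.87, 10.4 and 11.02 in tRNA-Phe-1-1-/- mice, so its mean in WT rests on replicate C, and without that sample the log2 difference turned from -0.35 to 0.63.

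In the brains of the other 2 lines 0 of 10 transporters passed (limma; 0 with edgeR and with DESeq2), beside 0% of all genes in tRNA-Phe-2-1-/- and 0% in tRNA-Phe-3-1-/- brains. Slc38a2 was the 1 transporter with an unadjusted p under 0.05 in each, beside 5.57% of all genes in tRNA-Phe-2-1-/- and 12.3% in tRNA-Phe-3-1-/- brains. The log2 differences ran from -1.66 (Slc43a1) to 0.06 in tRNA-Phe-2-1-/- and from -0.35 to 0.16 in tRNA-Phe-3-1-/- mice. Between the knockouts, Slc38a2 was higher in tRNA-Phe-1-1-/- than in tRNA-Phe-3-1-/- brains by 0.55 ± 0.12 (SE; limma, adjusted p = 0.0417), the single transporter of 10 that passed, beside 1.41% of all genes that were higher. The groups did not overlap, as for 12.4% of all genes that were higher. This call was lost without any 1 of replicates A, B and C of tRNA-Phe-1-1-/- or replicates A and C of tRNA-Phe-3-1-/-, and with no filter, quantile normalisation, no variance trend, only the 2 groups compared or edgeR, while DESeq2 called 2 transporters. Against tRNA-Phe-2-1-/- brains 0 of 10 passed (limma; 0 with edgeR and 2 with DESeq2), beside 0.53% of all genes. At an unadjusted p under 0.05 there were 4, beside 13.7%, and the lowest adjusted p was that of Slc38a2, 0.0954, with a log2 difference of 0.48 ± 0.12. Between tRNA-Phe-3-1-/- and tRNA-Phe-2-1-/- brains 0 of 10 passed (limma; 0 with edgeR and with DESeq2), beside 0% of all genes, and 0 had an unadjusted p under 0.05, beside 9.93%.

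Among other amino acid transporters in tRNA-Phe-1-1-/- brains, 1 of 31 tested passed the threshold as lower than in WT and 0 as higher, beside 1.05% of all genes. This was Slc38a5, the glutamine carrier SNAT5, with counts of 100.1, 95.1 and 76.8 in WT and 52.7, 52.0 and 48.1 in tRNA-Phe-1-1-/- mice (log2 difference -0.81 ± 0.16, SE; limma, adjusted p = 0.0449). Of 22 amino acid response genes 1 passed as higher, Ddit4, an inhibitor of mTORC1, with counts of 630.4, 531 and 554 in WT and 818, 1446 and 1115 in tRNA-Phe-1-1-/- mice (log2 difference 0.94 ± 0.17, adjusted p = 0.0376). Whether past the threshold or not, 17 of the 22 had positive differences, with a median of 0.14 against -0.0006 over all genes. At an unadjusted p under 0.05 (limma) there were 7, beside 15.9% of all genes. Of 13 clock genes 2 passed as higher, Per2 and Per3. The 3 genes whose profile over the 12 brain samples was most like that of Slc7a5 were Nktr, Enkd1 and Hip1, with Pearson r of 0.930, 0.924 and 0.914 among 15156 genes, a description that rests on the same 12 libraries.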

How the data were processed

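Following the methods of the study, the authors used Trim Galore for trimming, STAR for alignment to GRCm38.p6 with nuclear mitochondrial sequences masked, Salmon (strand-aware, bias-corrected) for gene estimates and DESeq2 for normalisation in each tissue; the submitters' processing notes list the same tools. The deposited values are a signal, estimated read counts divided by 1 size factor per sample by the authors. The authors' own comparison tables (means, log2 fold changes, errors and s-values) were not used. Values were whole multiples of 1 step in 100% of cases (within 0.01), which gave depth and recovered reads.

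The members and lists were chosen with earlier results of these data known. Gene symbols were paired with 93.2% of Ensembl IDs through GENCODE, and positions are from RefSeq for GRCm38.p6. In each tissue log2(normalised count + 1) was fitted with limma 3.58.1 (R 4.3.3) over all 12 samples, for genes with a mean of at least 10, with a variance trend. P-values are two-sided and adjusted by Benjamini-Hochberg over all genes of a comparison, with a threshold of 0.05. This scale understates the differences of low genes. With 3 samples per group, each p-value sets a difference against the spread between samples within genotypes. This spread was estimated over all 12 samples of the tissue and moderated towards a trend across genes. All 10 transporters are reported, and from each list at most 4 genes called in a comparison, those with the lowest adjusted p; Asns and Dbp values were added after they had been seen. A gene first listed among the other transporters is not reported here. edgeR 4.0.16 and DESeq2 1.42.0 were run on recovered reads of 11 samples per tissue, since the step of 1 sample in each (replicate C of tRNA-Phe-1-1-/- in the brain and of tRNA-Phe-3-1-/- in the liver) was too near 1 to be told from normalised values. The method was tested on simulated data.

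Whether replicate letters pair samples was checked by correlating the deviations of same-letter samples from their group means. Every pair exceeded 0.1 in 1 of the 12 comparisons, tRNA-Phe-2-1-/- against tRNA-Phe-3-1-/- in the brain (0.132, 0.205 and 0.492), in which no transporter passed with or without a replicate block.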

Additional observations from a re-analysis of the deposited data

Results flagged for a closer look

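The 9 transporters tested in both tissues were looked at in each of the 3 knockout lines. Brain and liver of a line lay on opposite sides of the WT mean of log2 values, in all 3 samples of each tissue, in 6 cases. How often this holds over all genes was not counted, so the 6 cases are a description only. The difference between tissues was not tested in any of them, since the tables were normalised separately. In tRNA-Phe-1-1-/- mice these were Slc43a1, with log2 differences from WT of -0.35 (brain) and 0.76 (liver), and Slc38a1, with -0.19 and 0.81, of which the liver value passed the threshold. Neither value of Slc43a1 passed (limma, adjusted p = 0.897 and 0.122). Its brain counts were near the limit of detection, and the brain difference turned positive without WT replicate C. In tRNA-Phe-2-1-/- mice they were Slc16a10 (-0.14 and 0.42), Slc38a2 (-0.28 and 0.15) and Slc38a1 (-0.11 and 0.03, where the mean liver counts differed the other way, by a factor of 0.993, and 2 of the 3 samples lay below the WT mean count). In tRNA-Phe-3-1-/- mice it was Slc16a10, with -0.34 in the brain and 0.48 in the liver. With 3 samples per group no single sample was tested as an outlier.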

How the results depend on the processing

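Of 192 counts of transporters called under another setting, 172 stayed within 1.5 times the reported count and 20 did not. In the brain, tRNA-Phe-1-1-/- against WT gave 1 in place of 0 with a replicate block (Slc7a5, adjusted p = 0.0496) and with DESeq2; tRNA-Phe-1-1-/- against tRNA-Phe-2-1-/- gave 2 in place of 0 with DESeq2; and the comparison of tRNA-Phe-1-1-/- with tRNA-Phe-3-1-/- gave 0 in place of 1 with no filter, quantile normalisation, no variance trend, a replicate block, edgeR or only the 2 groups compared, and 2 with DESeq2. In the liver, only the 2 groups compared gave 3 in place of 5 for tRNA-Phe-1-1-/- against WT and 0 in place of 3 against tRNA-Phe-3-1-/-. Leaving out 1 sample gave 0 to 1 transporters between tRNA-Phe-3-1-/- and tRNA-Phe-1-1-/- in the brain, and in the liver 3 to 5 for tRNA-Phe-1-1-/- against WT, 2 to 4 against tRNA-Phe-2-1-/- and 1 to 3 against tRNA-Phe-3-1-/-. The cause of these changes was not tested. In 11 of the 12 comparisons same-letter samples share only a letter (correlations of -0.294 to 0.304, and in 0 of the 11 did every sample correlate best with its own letter), and the replicate block moved no other count of transporters by over 1.5 times. With a replicate block the adjusted p of Slc43a2 in the tRNA-Phe-1-1-/- liver was 0.0578. Directions turned when 1 sample was left out for Slc43a1 (-0.88 to 0.63) and Slc43a2 (-0.18 to 0.078) in tRNA-Phe-1-1-/- brains and for Slc7a8 (-0.17 to 0.14) in tRNA-Phe-1-1-/- livers, none of which had passed the threshold. Of 525 alternative values of the transporters given as ranges, 36 changed sign and 0 passed the threshold. At these depths Slc7a11 in the liver and Slc43a1 in the brain were close to the limit of detection.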

Other observations

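Replicate B of tRNA-Phe-1-1-/- had the highest liver count of Slc38a2 (13193), Slc3a2 (1767) and Slc7a11 (31.7). The following genes were chosen after their values had been seen. The same sample had the highest counts of Asns (3599) and of the serine synthesis genes Phgdh (354) and Psat1 (384). Other carriers were also highest in it, Slc7a2 and Slc7a1 for cationic amino acids (50316 and 257) and Slc3a1, the heavy chain of the cystine and dibasic amino acid exchanger (10853). WT samples ranged from 429 to 1970 for Asns and from 4.89 to 66.2 for Phgdh, and replicate A of tRNA-Phe-3-1-/- had 4059 for Slc38a2 beside 2437 for Asns. Slc16a10 did not share this pattern, since its highest count in tRNA-Phe-1-1-/- mice was in replicate A (6655).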
